A study of Homo sapiens with 12 samples.

Results

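The granins CHGA, CHGB, SCG2, VGF, SCG3 and SCG5 and the peptide-processing enzymes CPE and PAM were followed in human neuroblastoma cells exposed to the BET inhibitor JQ1. These 8 genes, of 18132 genes measured, were taken by symbol from every probe set that names exactly 1 gene, which gave 17 probe sets of 44994. The 4 groups were Kelly cells with 1 µM JQ1, Kelly cells with DMSO, BE(2)-C cells with 1 µM JQ1 and BE(2)-C cells with DMSO, each kept for 24 h and each read on 3 Affymetrix PrimeView arrays. Both are neuroblastoma lines with extra copies of MYCN, and BE(2)-C is a subline grown from 1 clone, so each line stands for 1 tumour. DMSO is the solvent and was the vehicle control. The labels speak of triplicate treatment without saying that the cultures were separate, so each p-value rests on a spread between arrays that may be technical.

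Granins are acidic proteins that pack the dense-core vesicles of neurons and endocrine cells, the vesicles that chromaffin cells and neuroblastoma cells fill with catecholamines and peptides. Many granins are themselves precursors: convertases cut them at paired basic residues, CPE trims the basic residues left at the new end, and PAM turns a terminal glycine into an amide. Chromogranin A, the product of CHGA, is released with vesicle content and is used as a blood marker of neuroendocrine tumours.

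Levels are log2 intensities of a probe set, and differences are log2 fold changes on the same scale. A call is an adjusted p under 0.05 in limma, adjusted by Benjamini-Hochberg over all 44994 probe sets of a comparison. A gene with several probe sets was described first by its brightest one, ranked by mean level on the 12 arrays. CHGB had 4 probe sets, SCG3 and PAM 3 each, VGF and CPE 2 each, and CHGA, SCG2 and SCG5 1 each. The number of arrays limits the precision. Overlap between groups of 3 arrays was described and not tested. The share of all probe sets without overlap was not counted.

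Arrays of the same group correlated at 0.952 to 0.996. Spiked bacterial transcripts serve as hybridization controls, and their mean log2 signal was 12.94 ± 0.69 in Kelly with JQ1, 11.90 ± 1.29 in Kelly with DMSO, 11.41 ± 1.20 in BE(2)-C with JQ1 and 11.20 ± 1.54 in BE(2)-C with DMSO (SD, n = 3 each). The part of this signal, and of the marker levels that follow, in the results was not tested beyond the values given beside them. The ACTB signal of the 3' probe set minus the 5' one, a sign of RNA quality, was 2.22 and 2.24 (log2) on the Kelly arrays of replicate 3, 1.24 to 1.65 on the other Kelly arrays and 0.63 to 1.24 on the BE(2)-C arrays. The adrenergic markers of neuroblastoma, 7 of 8 measured, had array means of 11.14 to 11.18 in Kelly with JQ1, 11.38 to 11.56 in Kelly with DMSO, 10.83 to 10.92 in BE(2)-C with JQ1 and 11.03 to 11.15 in BE(2)-C with DMSO. The markers did not move alike. With JQ1, TH, DBH and ISL1 had lower means in both lines, and PHOX2A, HAND2 and GATA2 higher ones. GATA3 was lower in Kelly and higher in BE(2)-C. TH had 7.35 against 9.25 with DMSO in Kelly, and 7.88 against 9.37 in BE(2)-C. The 4 blood markers had array means of 4.89 to 5.70 over all groups, and the 4 epithelial markers of 4.90 to 5.67. The 6 mesenchymal markers had array means of 5.44 to 6.23, and the 2 measured of 4 Schwann cell markers of 5.67 to 6.71. Single markers lay outside these ranges. The mesenchymal marker FN1 had means of 9.72 in Kelly with JQ1 and 8.90 in Kelly with DMSO. In BE(2)-C it had 5.77 with JQ1 and 6.12 with DMSO. Fewer cells of a type and less RNA per cell cannot be told apart in such bulk samples.

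Promoter sequences were in hand for 6 of the 8 genes, as windows from 250 bases before to 50 bases after a RefSeq start site in GRCh38.p14. SCG2 and CHGB had no window, so their promoters were not searched. The cAMP response element TGACGTCA, the site through which CREB family factors act, was found in the windows of VGF and CHGA, and in 1.85% of all 35116 windows. Its first letter was at -79 from the start in VGF and at -54 in CHGA. Its shorter form TGACG, which lies inside the full element and was searched on both strands, was also in the windows of SCG5, SCG3 and CPE and in 1 of the 3 windows of PAM, and in 24.6% of all windows. The 100 bases before the start are shown for VGF and CHGA, which hold the full element, and for SCG5, whose level moved differently, with the matched letters in capitals.
VGF, chr7:101165570-101165669, minus strand: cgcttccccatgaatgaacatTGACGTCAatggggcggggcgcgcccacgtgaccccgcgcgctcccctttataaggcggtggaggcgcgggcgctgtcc
CHGA, chr14:92923050-92923149, plus strand: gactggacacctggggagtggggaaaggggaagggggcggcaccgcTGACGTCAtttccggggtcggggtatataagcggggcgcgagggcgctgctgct
SCG5, chr15:32641610-32641709, plus strand: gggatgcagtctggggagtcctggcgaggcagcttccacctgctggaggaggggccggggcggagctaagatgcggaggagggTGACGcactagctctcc

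The VGF window also held an E-box, CACGTG, at -54 (7.26% of all windows on either strand). The TATA box letters TATAAA were matched at -32 on its other strand (11.5%). Over that place the printed VGF strand reads tataagg, and the printed CHGA strand holds tataagc. The search letters match neither of these. The E-box is the letter pattern that MYC and MAX family dimers recognise. GC boxes, GGGCGG, were in the windows of VGF, CHGA, SCG3 and SCG5 and in 2 of the 3 PAM windows, against 45.0% of all windows. A match is a run of letters and was not read as a bound site.

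The question was how JQ1 changed the granins and their processing enzymes in each line. In Kelly cells SCG2 and VGF rose, while SCG5 and PAM had lower means that did not pass. In BE(2)-C cells VGF, CHGA and CHGB rose, and SCG2, SCG3 and SCG5 had higher means that did not pass. CPE had the largest difference between the lines, at a log2 difference of -4.16 under DMSO, and its JQ1 effect passed in neither line. Of the 17 probe sets 3 rose in Kelly and 4 in BE(2)-C, and 0 fell in either. The difference of the JQ1 effect between the lines passed in 0 of them.

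**Figure D1:**
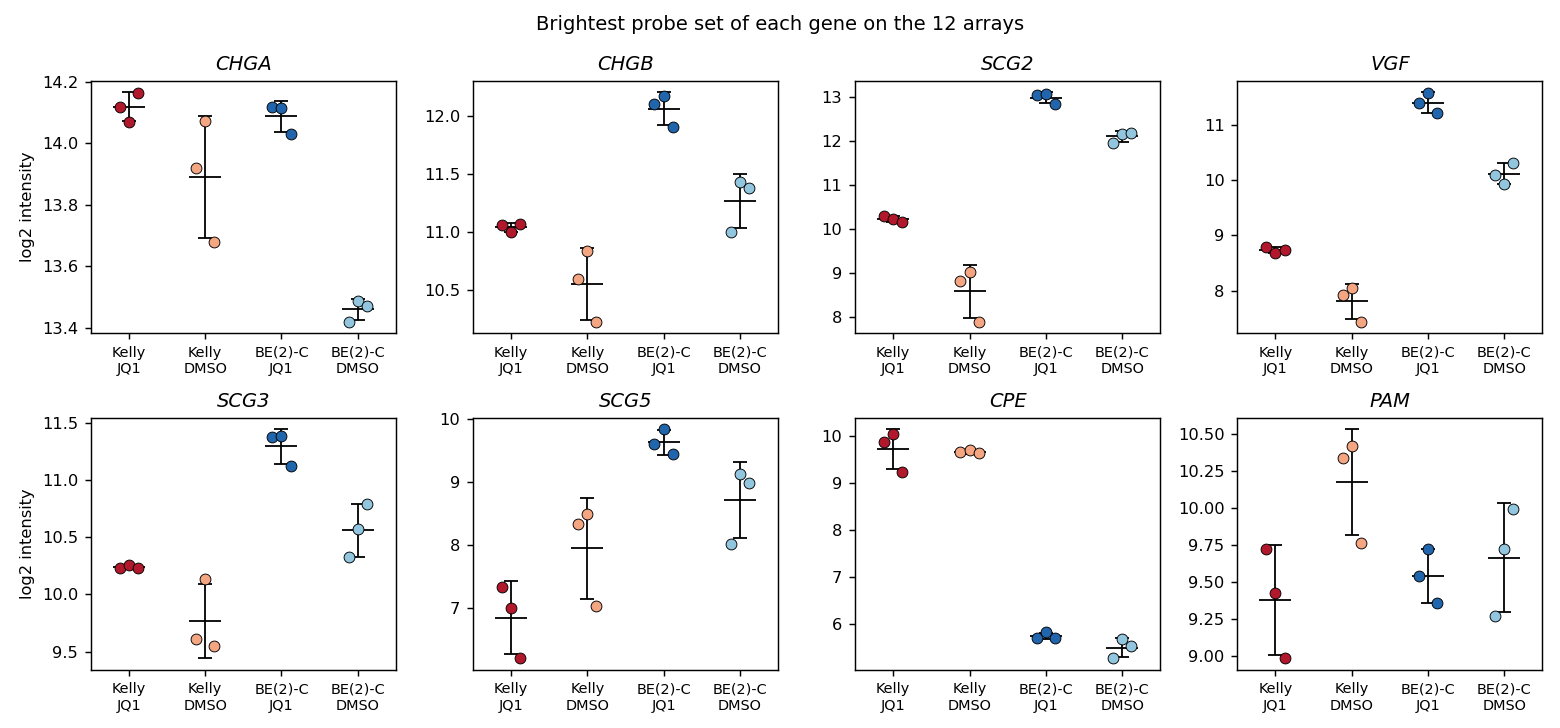
Log2 intensity of the brightest probe set of each of the 8 genes on the 12 arrays, with Kelly JQ1, Kelly DMSO, BE(2)-C JQ1 and BE(2)-C DMSO from left to right. Points are arrays, and bars are the mean ± SD of 3; each panel has its own axis, which does not start at 0. In SCG2 and VGF all JQ1 points lie above the DMSO points of the same line, and in CPE both BE(2)-C groups lie near 5.5 and both Kelly groups near 9.7.

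Among all probe sets naming 1 gene, 0.958% rose and 3.39% fell in Kelly. The BE(2)-C shares were 1.25% rising and 1.56% falling. The 17 member probe sets had a median log2 fold change of 0.21 in Kelly, beside 0.05 over all probe sets, and of 0.71 in BE(2)-C, beside -0.01. Probe sets of 1 gene read the same transcripts and are not separate counts: the 3 Kelly calls came from SCG2 and both VGF sets, and the 4 BE(2)-C calls from CHGA, 1 CHGB set and both VGF sets. At an unadjusted p under 0.05 there were 9 member probe sets in Kelly and 12 in BE(2)-C, against 20.0% and 12.5% of all probe sets. The Kelly count was 5 without Kelly DMSO replicate 3, with 2 higher and 3 lower. The BE(2)-C count was 1 or 2 when any 1 of the 6 BE(2)-C arrays, or Kelly DMSO replicate 1, was left out.

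SCG2 encodes secretogranin II, the precursor of the peptide secretoneurin. It stood at 10.29, 10.23 and 10.16 in Kelly with JQ1, against 8.81, 9.02 and 7.89 in Kelly with DMSO. BE(2)-C cells had 13.03, 13.05 and 12.84 with JQ1, against 11.95, 12.16 and 12.19 with DMSO. The JQ1 arrays were the higher ones in both lines without overlap, and DMSO replicate 3 was the lowest Kelly array. It rose 3.14-fold in Kelly, a log2 fold change of 1.65 (SE 0.24) with a limma adjusted p of 0.00216. In BE(2)-C the log2 fold change was 0.87 (SE 0.24), with an adjusted p of 0.0839. That value passed in 5 of 23 alternatives, among them the fit to the BE(2)-C arrays alone and the fit without Kelly DMSO replicate 3 (adjusted p = 0.00578). The effect in BE(2)-C minus that in Kelly was -0.78 (95% interval -1.52 to -0.04, adjusted p = 0.485), and it was -0.43 without Kelly DMSO replicate 3.

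VGF encodes a nerve growth factor-inducible precursor of several neuropeptides. Its brightest probe set stood at 8.79, 8.69 and 8.75 in Kelly with JQ1, against 7.92, 8.06 and 7.44 with DMSO. BE(2)-C cells had 11.40, 11.58 and 11.21 with JQ1, against 10.09, 9.93 and 10.31 with DMSO. Neither line showed overlap between JQ1 and DMSO. VGF was the gene of this set that rose in both lines: by a log2 fold change of 0.93 in Kelly (SE 0.18, limma adjusted p = 0.0126) and of 1.28 in BE(2)-C (SE 0.18, adjusted p = 0.00302). The other VGF probe set gave 0.92 and 1.07, with adjusted p of 0.0379 and 0.025, and its name ends in _x_at, a mark of probes that can match other transcripts. With same-numbered arrays of each line taken as pairs, a replicate block, this second set lost its call in both lines. The limma adjusted p was then 0.053 in Kelly and 0.0519 in BE(2)-C. Its Kelly call was also lost without Kelly DMSO replicate 3 (adjusted p = 0.0634). The call of the brightest set was lost in Kelly in the fit to the 6 Kelly arrays alone (adjusted p = 0.0751). The line difference was 0.35 (95% interval -0.21 to 0.91).

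CHGA, the gene of chromogranin A, had 14.12, 14.07 and 14.16 in Kelly with JQ1, against 13.92, 14.07 and 13.68 in Kelly with DMSO, and these groups overlapped. In the other line, BE(2)-C, it had 14.12, 14.11 and 14.03 with JQ1, against 13.42, 13.49 and 13.47 with DMSO, and these did not. It rose in BE(2)-C by a log2 fold change of 0.63 (SE 0.14) with a limma adjusted p of 0.029, while the Kelly value was 0.23 (SE 0.14, adjusted p = 0.355). The line difference of the JQ1 effect was 0.40 (95% interval -0.02 to 0.82, adjusted p = 0.508) and did not pass. With JQ1 the CHGA arrays of BE(2)-C and Kelly overlapped, with a log2 difference of BE(2)-C minus Kelly of -0.03 (SE 0.14).

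CHGB encodes chromogranin B, the other major chromogranin of chromaffin vesicles. Its brightest probe set had 11.06, 11.00 and 11.07 in Kelly with JQ1, against 10.59, 10.84 and 10.23 with DMSO. The BE(2)-C arrays had 12.10, 12.18 and 11.90 with JQ1, against 11.00, 11.43 and 11.38 with DMSO. The groups did not overlap in either line. It rose in BE(2)-C by a log2 fold change of 0.79 (SE 0.18, limma adjusted p = 0.0372), while the Kelly value was 0.49 (SE 0.18, adjusted p = 0.162). The line difference of the JQ1 effect was 0.30 (95% interval -0.25 to 0.86, adjusted p = 0.640) and did not pass. None of the other 3 CHGB sets passed: their JQ1 effects lay between 0.21 and 0.58 for Kelly and between 0.58 and 0.84 for BE(2)-C. The name of 1 of these also ends in _x_at. The BE(2)-C calls of both CHGA and CHGB were lost whichever of the 6 BE(2)-C arrays was left out, with adjusted p of 0.0659 to 0.138 for CHGA and 0.0701 to 0.165 for CHGB. The log2 fold changes in these fits were 0.61 to 0.66 for CHGA and 0.66 to 0.87 for CHGB. In all, the CHGA call was lost in 8 of 23 alternatives and the CHGB call in 13 of 23. Both were lost with a replicate block (adjusted p = 0.0891 and 0.0745). That of CHGB was also lost with median centring (adjusted p = 0.0572), with its probe sets averaged (0.145) and with the BE(2)-C arrays alone (0.0592). Both calls were lost without Kelly DMSO replicate 1 (adjusted p = 0.0552 and 0.0651), and that of CHGB without Kelly JQ1 replicate 1 or 2 (adjusted p = 0.0564 and 0.0594).

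SCG3 encodes secretogranin III, which binds chromogranin A and vesicle membranes. Its brightest probe set had 10.23, 10.25 and 10.23 in Kelly with JQ1, against 9.61, 10.14 and 9.55 with DMSO, and 11.38, 11.38 and 11.12 in BE(2)-C with JQ1, against 10.33, 10.57 and 10.79 with DMSO. Every JQ1 array lay above every DMSO array of its line. The log2 fold changes were 0.47 in Kelly (SE 0.18, limma adjusted p = 0.181) and 0.73 in BE(2)-C (SE 0.18, adjusted p = 0.057). The BE(2)-C value passed in 7 of 23 alternatives, 0.0443 without Kelly DMSO replicate 3 among them. The other 2 SCG3 probe sets gave 0.71 and 0.72 in BE(2)-C and -0.06 and 0.12 in Kelly.

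**Figure D2:**
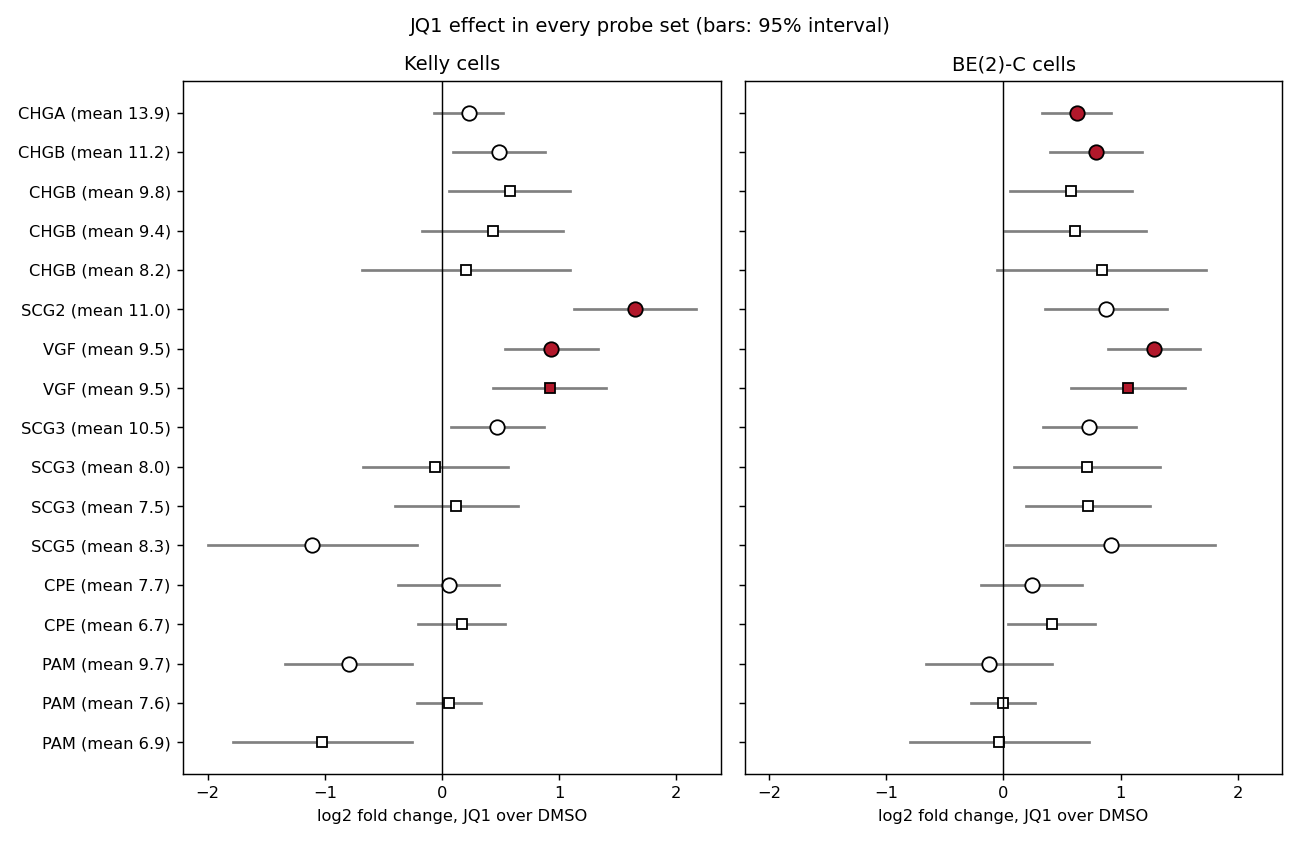
JQ1 effect in each of the 17 probe sets, as log2 fold change of JQ1 over DMSO with its 95% interval, in Kelly (left) and BE(2)-C (right). Circles are the brightest probe set of a gene and squares the others, red marks an adjusted p under 0.05, and the mean level over 12 arrays is beside each gene. The values run from -1.11 to 1.65 in Kelly and from -0.12 to 1.28 in BE(2)-C.

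SCG5 encodes 7B2, a chaperone and inhibitor of the convertase PC2. Its single probe set had 7.33, 7.0 and 6.20 in Kelly with JQ1, against 8.33, 8.50 and 7.03 in Kelly with DMSO. BE(2)-C cells had 9.60, 9.84 and 9.45 with JQ1, against 8.02, 9.13 and 8.99 with DMSO. SCG5 was the gene with means on opposite sides, lower with JQ1 in Kelly, where DMSO replicate 3 overlapped the JQ1 arrays, and higher in BE(2)-C, where no arrays overlapped. The log2 fold changes were -1.11 in Kelly (SE 0.41, limma adjusted p = 0.163) and 0.92 in BE(2)-C (SE 0.41, adjusted p = 0.377). Their difference was 2.02 (SE 0.58, 95% interval 0.76 to 3.29) with an adjusted p of 0.248, and of the 17 probe sets 0 passed for the line difference, beside 0.233% of all probe sets higher and 0.0933% lower. At an unadjusted p under 0.05 there were 2 member probe sets, SCG2 and SCG5, against 9.96% of all.

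The SCG5 values depended on single DMSO arrays, replicate 3 in Kelly and replicate 1 in BE(2)-C. Without the BE(2)-C array the JQ1 effect in BE(2)-C was 0.57. Kelly DMSO replicate 3 had an ACTB 3' minus 5' value of 2.22, and the part of RNA quality in SCG5 and PAM was not tested. Without Kelly DMSO replicate 3 SCG5 fell in Kelly, with a log2 fold change of -1.57 (limma adjusted p = 0.0229), and the line difference of 2.49 passed (adjusted p = 0.043). Kelly JQ1 replicate 3, with an ACTB value of 2.24, stayed in that fit. The 3 arrays of highest control signal were both Kelly replicate 3 arrays and BE(2)-C DMSO replicate 1. Without these 3 the log2 fold changes were -1.25 in Kelly (adjusted p = 0.00137) and 0.57 in BE(2)-C (adjusted p = 0.0454). The line difference was then 1.82 (adjusted p = 0.0052). With same-numbered arrays of each line taken as pairs, SCG5 passed in Kelly as well (log2 fold change -1.11, limma adjusted p = 0.0342). The level of SCG5 also moved with the hybridization control signal, by -0.42 per unit of log2 control signal (SE 0.08, adjusted p = 0.000938). When it entered as a covariate, the log2 fold changes were -0.68 in Kelly (adjusted p = 0.0904) and 1.00 in BE(2)-C (adjusted p = 0.00838), and the line difference of 1.68 passed (adjusted p = 0.0144).

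PAM, the amidating enzyme, was read by 3 probe sets that did not move alike. The brightest had 9.72, 9.43 and 8.98 in Kelly with JQ1, against 10.34, 10.42 and 9.76 with DMSO, and 9.54, 9.72 and 9.36 in BE(2)-C with JQ1, against 9.27, 9.72 and 9.99 with DMSO. All Kelly JQ1 arrays lay below the Kelly DMSO arrays, and the BE(2)-C groups overlapped. The log2 fold changes were -0.80 in Kelly (SE 0.25, limma adjusted p = 0.102) and -0.12 in BE(2)-C (SE 0.25). The dimmest set gave -1.02 in Kelly (SE 0.35), and the set at a mean level of 7.64 gave 0.06 (SE 0.12), with arrays between 7.66 and 7.80 in both Kelly groups. Without Kelly DMSO replicate 3 the brightest and the dimmest set fell in Kelly, with log2 fold changes of -1.0 and -1.31 (limma adjusted p = 0.0332 and 0.0439). They also fell in Kelly with the control signal as a covariate, with -0.54 and -0.63 (limma adjusted p = 0.0287 and 0.0352). Without the 3 arrays of highest control signal, the brightest set fell in Kelly with -0.80 (limma adjusted p = 0.0108).

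**Figure D3:**
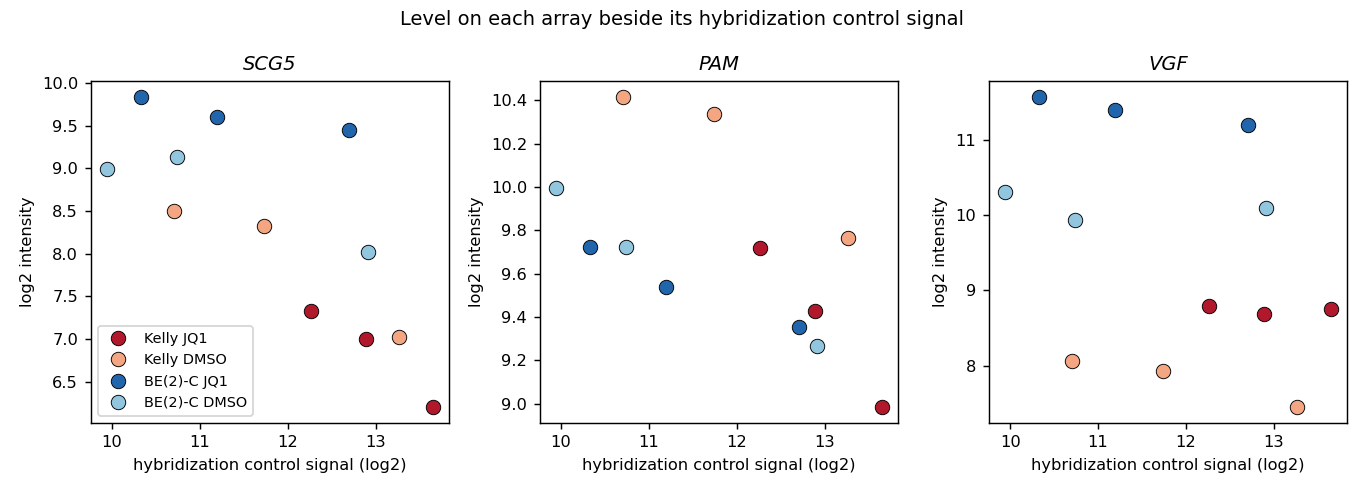
Log2 intensity of SCG5, PAM and VGF (brightest probe set) on each array against the mean log2 signal of 9 hybridization control probe sets on that array, coloured by group. SCG5 and PAM are lower on arrays of higher control signal, and the VGF points of a line stay apart by treatment at all control signals.

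The slope on the control signal passed in 13 of the 17 probe sets, and all 13 were lower at a higher control signal, beside 24.8% of all probe sets with such a slope. CHGA, both CPE sets and the PAM set at 7.64 were the exceptions. When the control signal entered as a covariate, the Kelly log2 fold changes were 1.85 for SCG2 and 1.06 for VGF. The member probe sets called then numbered 8 in Kelly, 6 higher and 2 lower, and to 11 in BE(2)-C, all higher.

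CPE, the carboxypeptidase of the regulated secretory pathway, separated the lines. Its brightest probe set had 5.70, 5.83 and 5.71 in BE(2)-C with JQ1, against 9.88, 10.04 and 9.23 in Kelly with JQ1. Under DMSO it had 5.28, 5.69 and 5.54 in BE(2)-C, against 9.65, 9.69 and 9.63 in Kelly. No array of one line came near those of the other. The log2 difference between the lines was -4.16 under DMSO (SE 0.20, limma adjusted p = 6.57e-08) and -3.97 under JQ1 (SE 0.20, adjusted p = 9.95e-08), and the other CPE set gave -5.03 and -4.79. That other set stood at 3.87 to 4.56 in BE(2)-C, where the median of 23 background control probe sets was 3.92 to 4.31. The highest of the 23 was 10.04 to 11.29 on those arrays, and the background of the CPE sets themselves was not estimated. The size of the difference is therefore uncertain at its low end in both CPE sets. The JQ1 effect on CPE was 0.06 in Kelly (95% interval -0.37 to 0.49) and 0.24 in BE(2)-C (-0.19 to 0.67).

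Under DMSO SCG2 was higher in BE(2)-C than in Kelly by 3.52 (SE 0.24, limma adjusted p = 1.43e-06), VGF by 2.30 (SE 0.18, adjusted p = 4.65e-06), SCG3 by 0.80 (SE 0.18, adjusted p = 0.0125) and CHGB by 0.72 (SE 0.18, adjusted p = 0.0202). CHGA had a difference of -0.43 (SE 0.14, adjusted p = 0.0602), with all BE(2)-C DMSO arrays below the Kelly DMSO arrays, and passed in 7 of 22 alternatives. SCG5 and PAM did not pass. In all 9 of the 17 probe sets were higher in BE(2)-C and 2 lower, beside 6.26% higher and 6% lower of all probe sets. The total of 11 was 6 without Kelly DMSO replicate 1, BE(2)-C DMSO replicate 2 or BE(2)-C DMSO replicate 3. The call of CHGB was lost without any 1 of these arrays or Kelly DMSO replicate 3, and that of SCG3 without Kelly DMSO replicate 1 or BE(2)-C DMSO replicate 3.

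Under JQ1 11 probe sets were higher in BE(2)-C and 2 lower, beside 12.6% and 7.63% of all probe sets. SCG5 was higher in BE(2)-C, by a log2 difference of 2.79 (SE 0.41, limma adjusted p = 0.00059), and passed in all 22 alternatives. SCG2 was higher by 2.75 and VGF by 2.66. SCG3 was higher by 1.05 and CHGB by 1.02 (limma adjusted p = 0.00176 and 0.00195), and both passed in all 22 alternatives. The change of a line difference between the treatments is the line difference of the JQ1 effect, which passed in 0 of the 17 probe sets (SCG5 adjusted p = 0.248 in limma).

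**Figure D4:**
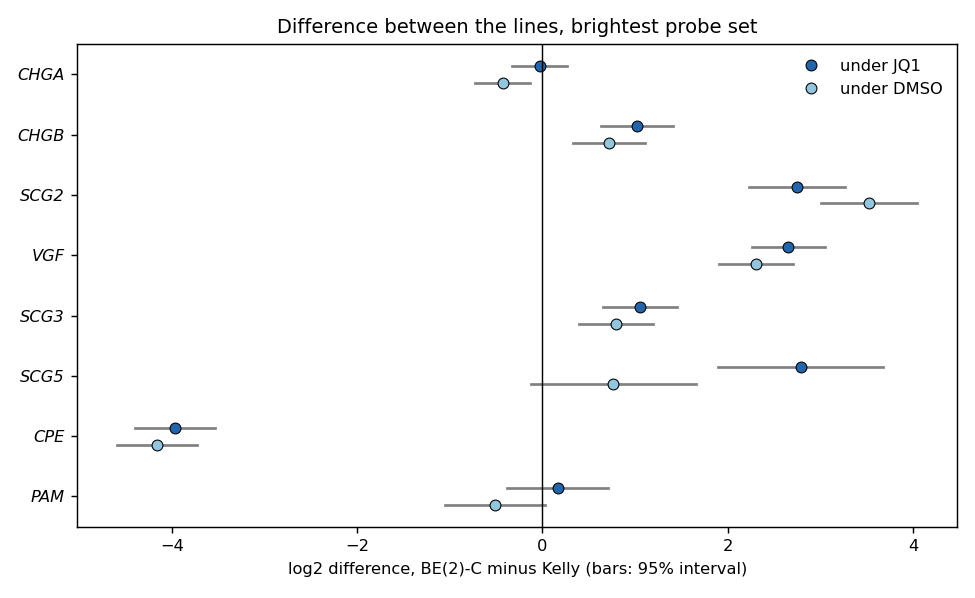
Log2 difference of BE(2)-C minus Kelly in the brightest probe set of each gene, under JQ1 (dark) and under DMSO (light), with 95% intervals. SCG2 and VGF lie above 2 and CPE near -4 under both treatments, while SCG5 is at 2.79 under JQ1 and 0.76 under DMSO.

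The order of the 4 groups differed between the genes. By their brightest probe sets SCG2, VGF, CHGB and SCG3 shared one order. BE(2)-C with JQ1 was highest, then BE(2)-C with DMSO, Kelly with JQ1 and Kelly with DMSO. In the brightest sets of SCG2, VGF and SCG3 no neighbouring groups in that order overlapped. How many of all genes had such an order, or groups without overlap, was not counted. The other CHGB and SCG3 sets overlapped between the Kelly groups. In 1 SCG3 set Kelly with JQ1, at 7.32, lay below Kelly with DMSO, at 7.37. In CHGB the BE(2)-C DMSO arrays, at 11.00 to 11.43, overlapped the Kelly JQ1 arrays, at 11.00 to 11.07. In SCG5 both BE(2)-C groups also came first, but Kelly with DMSO preceded Kelly with JQ1. In CHGA the groups with JQ1 led at 14.12 ± 0.05 in Kelly and 14.09 ± 0.05 in BE(2)-C, with Kelly DMSO at 13.89 ± 0.20 and BE(2)-C DMSO at 13.46 ± 0.04 (SD, n = 3 each).

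Likeness of profile was taken as the root mean square difference of gene-centred log2 values over the 12 arrays, among 10877 genes with a mean level of at least 6. SCG3 was the gene nearest to CHGB and CHGB the gene nearest to SCG3, with a difference of 0.10. The next nearest to CHGB were CSGALNACT2 and PDPK1, at 0.13 and 0.14, and to SCG3 RPGRIP1L and ATP6AP2, at 0.13 and 0.14. ATP6AP2 is an accessory subunit of the proton pump that acidifies vesicles. SCG2 was nearest to ITPR2, a calcium channel of the endoplasmic reticulum (0.43), VGF (0.46) and THSD7A (0.48), and VGF to ITPR2 (0.28), SAT1 (0.34) and PHLDA1 (0.36). SCG5 was nearest to RRAGB (0.24), ITFG1 (0.25) and PMPCB (0.29), and CPE to ELAVL2 (0.27), FAT1 (0.30) and MYO6 (0.32). All these profiles share the 12 arrays and the difference between the lines.

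The rest of the pathway was read from lists of related genes, each gene by its brightest probe set. Over all genes so read, 1.42% rose and 4.1% fell in Kelly, and 1.7% rose and 2.06% fell in BE(2)-C. Of 8 measured convertases and inhibitors 1 rose in Kelly and 0 passed in BE(2)-C. The 1 was PCSK5, a convertase, with a level of 7.13 with JQ1, against 6.08 with DMSO (log2 fold change 1.05 with SE 0.20, limma adjusted p = 0.0102). Its call was lost without Kelly DMSO replicate 1 (adjusted p = 0.0528). The list had a median of 0.28 in Kelly and 0.03 in BE(2)-C, beside 0.08 and -0.01 over all genes. PCSK1 and PCSK2 were not analysed here.

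Of 8 measured carboxypeptidases and terminal modifiers 2 fell in Kelly and 0 passed in BE(2)-C. QPCT, which forms the pyroglutamate end of peptides, fell to 4.74 in Kelly with JQ1, against 6.94 with DMSO (log2 fold change -2.21 with SE 0.34, limma adjusted p = 0.00307). AEBP1, a carboxypeptidase-like protein, fell by 0.97 (adjusted p = 0.00356), a call lost with quantile normalization (adjusted p = 0.0868). The medians were 0.03 in Kelly and -0.03 in BE(2)-C.

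Of 42 measured genes of the vesicle membrane, its biogenesis and its release, 4 fell and 0 rose in Kelly, and 2 fell and 1 rose in BE(2)-C. SLC18A1, which loads monoamines into vesicles, fell to 5.99 in Kelly with JQ1, against 8.10 with DMSO, and to 5.69 in BE(2)-C with JQ1, against 7.85 with DMSO (log2 fold changes -2.11 and -2.16, limma adjusted p = 0.00358 and 0.00471). RAB27A, a GTPase of vesicle docking, fell by 1.28 in Kelly and by 0.83 in BE(2)-C (adjusted p = 0.00344 and 0.0487), and the mean of its 6 probe sets passed in neither line. Its Kelly JQ1 mean of 4.36 lay among the background medians of those arrays, 4.24 to 4.55, so the size of the Kelly fall is uncertain. The BE(2)-C call of RAB27A was lost in 13 of 23 alternatives. CYB561, the electron carrier that keeps vesicular ascorbate reduced, fell by 1.12 and the sorting receptor SORL1 by 1.18 in Kelly. ICA1, a protein of vesicle maturation, rose by 1.07 in BE(2)-C (adjusted p = 0.0122), a call lost without any 1 of the BE(2)-C JQ1 arrays. The medians were -0.04 in Kelly and 0.05 in BE(2)-C.

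Of 17 measured transcription factors tied to granin genes 1 fell in Kelly and 1 rose in BE(2)-C. SP1, which binds GC boxes, fell in Kelly by 1.27 (limma adjusted p = 0.0258), a call lost without Kelly DMSO replicate 1 or 2, without Kelly JQ1 replicate 2 or 3, with the Kelly arrays alone, and with the mean of its probe sets. PHOX2A, a homeobox factor of noradrenergic neurons that is also among the adrenergic markers, rose in BE(2)-C by 0.83 (adjusted p = 0.013), a call lost without BE(2)-C DMSO replicate 2 or BE(2)-C JQ1 replicate 2 or 3. The medians were 0.14 in Kelly and 0.15 in BE(2)-C.

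**Figure D5:**
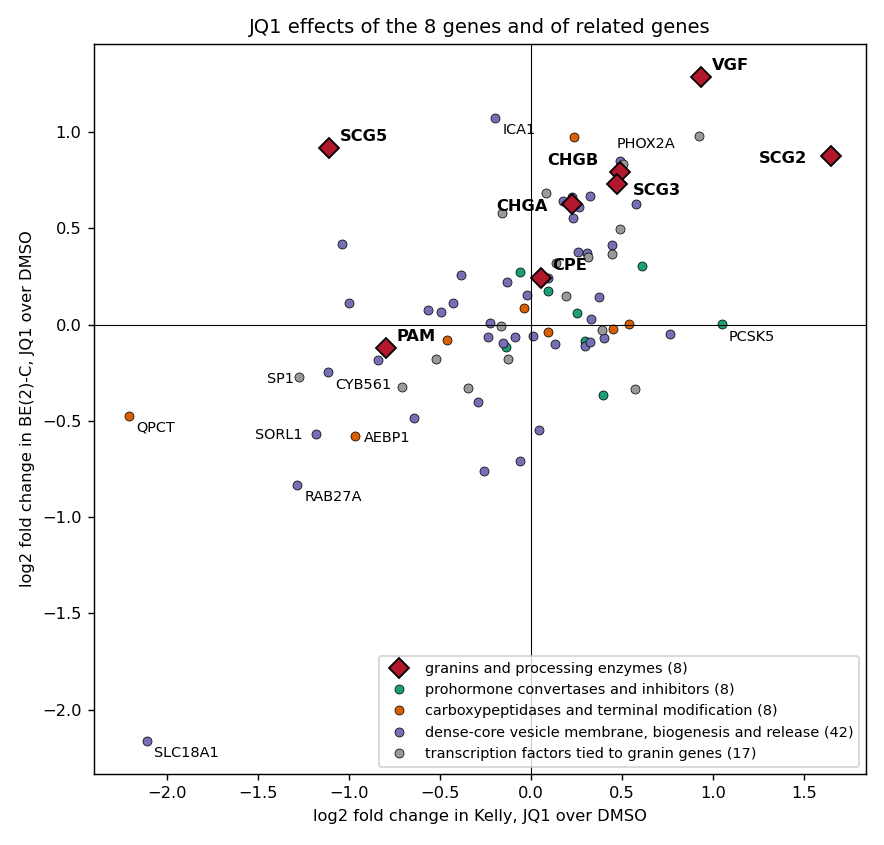
Log2 fold change of JQ1 over DMSO in Kelly (horizontal) and BE(2)-C (vertical) for the 8 genes (diamonds) and the related genes by list (circles), each by its brightest probe set. Related genes that passed in either line carry their names. SCG2 and VGF lie to the upper right, SCG5 to the upper left and SLC18A1 to the lower left.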

How the data were processed

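RNA of 12 arrays in 4 groups of 3 was read on the PrimeView array. The authors made the deposited values with RMA, per the submitters' processing notes; version and settings are not given in the sources used here. The deposited values are linear intensities (median 61.4 to 67.3 on an array), so log2 was taken with no offset and no further normalization. Of 49395 probe sets 44994 named 1 gene in the platform annotation; identifiers updated symbols through the GRCh38.p14 gene table.

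All probe sets naming 1 gene were fitted together by lmFit and eBayes of limma 3.58.1 under R 4.3.3, as 4 group means over 12 arrays. Two-sided p-values were adjusted by the Benjamini-Hochberg method, and the threshold was 0.05. The fit was tested on simulated data. Proteins were not analysed here. The genes, lists, tests and alternatives were chosen with earlier results of these data known, the control signal among them. Named genes were the 8 members, the list genes that passed, and the 3 nearest profiles of each member whose group means spanned at least 1.

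In Kelly, residuals of same-numbered DMSO and JQ1 arrays correlated across probe sets at 0.420, 0.227 and 0.509. JQ1 replicate 1 correlated with DMSO replicate 2 at 0.430, so pairing of replicates 1 and 2 was not shown. JQ1 replicate 3 correlated with DMSO replicates 1 and 2 at -0.353 and -0.432. In BE(2)-C the same-numbered correlations were -0.035, 0.537 and -0.749. There JQ1 replicate 2 correlated with DMSO replicate 3 at 0.795, and JQ1 replicate 3 with DMSO replicate 1 at 0.683. Pairing by number was therefore not shown in BE(2)-C. The labels name no shared day or batch, so pairing entered only as an alternative, the replicate block. Beside the 11 other alternatives, each array was left out in turn.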

Additional observations from a re-analysis of the deposited data

How the results depend on the processing

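Of 1171 values of single genes under the alternatives, 1066 kept their direction and their side of the threshold, 58 lost a call and 37 gained one. The other 10 changed sign, and passed with neither sign. PAM under JQ1 between the lines was -0.133 with quantile normalization, -0.217 with the control signal as covariate, -0.0338 without the 3 arrays of highest control signal, and -0.0338 to 0.334 with 1 array left out. CHGA there was 0.0296 with median centring. CPE in Kelly was -0.105 to 0.300 with 1 array left out, and its line difference was -0.157 without the 3 arrays and -0.0568 to 0.348 with 1 left out. PAM in BE(2)-C was -0.319 to 0.0444 with 1 left out. The calls of SCG2 in Kelly, VGF in BE(2)-C, and SCG2, VGF and CPE between the lines passed in every alternative run. So did those of CHGB, SCG3 and SCG5 between the lines under JQ1. With quantile normalization 6 member probe sets passed in Kelly. With the control signal as covariate, 8 passed in Kelly, 11 in BE(2)-C and 1, SCG5, for the line difference. Without the 3 arrays of highest control signal the counts were 6, 8 and 1. With the arrays of the compared groups alone they were 1 in Kelly and 5 between the lines under DMSO. With 1 brightest probe set per gene, so 8 features, 5 passed between the lines under DMSO and 6 under JQ1; with all probe sets of a gene averaged 2 passed in BE(2)-C, 6 under DMSO and 6 under JQ1. With a replicate block 3 passed in Kelly (2 higher, 1 lower), 1 in BE(2)-C and 0 for the line difference; it could not be fitted between the lines, and changed no other call of a brightest member probe set in Kelly than SCG5. Leaving out 1 array gave 2 to 5 calls in Kelly, 1 to 6 in BE(2)-C, 0 to 1 for the line difference, 6 to 12 between the lines under DMSO and 12 to 13 under JQ1. The cause of these changes was not tested, except that the feature counts fall by construction where a gene has 1 feature. Signal over background was not estimated probe by probe, which limits the low levels of CPE in BE(2)-C and of RAB27A and QPCT in Kelly.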
